A study of Mus musculus with 15 samples.

Results

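The response of the jejunal epithelium 120 min after peanut challenge was examined in CC027/GeniUnc mice, a recombinant inbred strain of the Collaborative Cross. The members are the 3 libraries whose labels give peanut sensitization, peanut challenge and the 120 min time point. They were set against the 3 libraries of mice that were sensitized to peanut and not challenged. These are 6 of the 15 libraries of the series, each of polyadenylated RNA from released jejunal epithelial cells.

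The 120 min mice had received peanut extract into the stomach, 2 mg weekly for 3 weeks and 5 mg in week 4, and then a challenge dose of 12 mg. The sensitized controls had received the same 4 doses and no challenge. Sensitized mice killed 30 or 60 min after the same challenge, and mice given PBS in place of peanut and left unchallenged, serve below as further groups of 3. Every group was on the same CC027/GeniUnc background, and in every group a 4 cm piece of jejunum was held for 75 min in EDTA (2 mM) and DTT (0.5 mM) to release the cells. The ages of the mice are not given in the labels used here. No challenged mice without sensitization, and no mice given a gavage free of peanut before death, were analysed here. Peanut challenge, the gavage itself and the time since it therefore cannot be told apart.

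The libraries held 21146527, 18768703 and 22215649 estimated counts at 120 min and 19553736, 17715532 and 16617941 in the sensitized controls. Levels are in CPM, estimated counts scaled to a common library total after TMM normalization, and errors on levels are SDs over 3 mice. Differences are given on the log2 scale with the standard error from the quasi-likelihood test of edgeR. A gene is said to rise or fall only where its p, adjusted by the method of Benjamini and Hochberg for 14968 genes tested, is under 0.05. Nothing in the labels says how the mice were housed or paired, and the p-values measure the spread between these libraries. The label of epithelial cells was borne out by its defining genes. The summed level of 11 genes of epithelial identity was 14900 to 15100 CPM at 120 min and 13100 to 13500 CPM in the controls, without overlap. Epcam, an adhesion protein of epithelia, stood at 1410, 1420 and 1260 CPM at 120 min and 1380, 1380 and 1250 CPM in the controls. Villin (Vil1), a protein of the brush border, stood at 2350, 1890 and 1880 CPM at 120 min and 1960, 1630 and 1840 CPM in the controls.

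Libraries differed in ways that bear on the results. Sensitized control replicate 3 stood apart from the other controls on the first principal component (−21.8, against 5.4 and 7.6), and its markers of T and B cells were the highest of its group. On that component 120 min replicate 3 was the highest of the 15 libraries (29.6, against 12.4 and 17.1 in its group). Its mean log2 CPM of lymphocyte and plasma cell markers, 1.42, was the lowest of the 15. Mitochondrially encoded genes took 13.76% to 16.6% of counts at 120 min and 17.15% to 26.73% in the controls, and immunoglobulin genes 0.02% to 0.06% at 120 min and 0.14% to 0.19% in the controls. In bulk RNA, fewer cells of a type and less RNA per cell cannot be told apart.

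The epithelium of the small intestine takes up cholesterol from food and bile and also makes it from acetyl-CoA. Synthesis runs through the mevalonate arm to farnesyl diphosphate, then through squalene and lanosterol to cholesterol. The transcription factor SREBP-2 is held in the endoplasmic reticulum by Insig proteins when sterols are plentiful. When sterols are scarce it is released and activates the genes of synthesis and uptake, generally together with the CCAAT-binding factor NF-Y and with Sp1, which binds GC boxes.

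At 120 min the genes of cholesterol synthesis were higher as a group. All 13 measured genes of the arm from squalene to cholesterol had positive fold changes, with a median log2 fold change of 0.74, and 6 of them passed the test. All 8 measured genes of the mevalonate arm were positive, with a median of 0.75, and 3 passed. Over all genes tested the median was −0.007, 49.2% of genes had positive values, and 109 genes, or 0.728%, rose. Fdft1, squalene synthase and the first enzyme committed to sterols, was at 151 ± 12.7 CPM at 120 min and at 80.2 ± 2.9 CPM in the sensitized controls, a change of 0.91 ± 0.13 (adjusted p = 0.00514).

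Promoters of called genes of both arms that hold a CCAAT box are shown first, since the letters that sterol gene promoters share can be read in them. They span 250 bases before to 50 after the transcription start in RefSeq's annotation of GRCm38.p6, the C57BL/6J reference, and are written 5′ to 3′ along the gene. Capitals mark the CCAAT box, which reads ATTGG on the opposite strand. It was marked because these promoters hold it, so its presence in each of them follows from the choice. The genes are Cyp51 (chr5:4104648-4104947, minus strand), Msmo1 (chr8:64733529-64733828, minus), Lss (chr10:76531355-76531654, plus), Nsdhl (chrX:72918271-72918570, plus) and Idi1 (chr13:8885356-8885655, plus).
Cyp51: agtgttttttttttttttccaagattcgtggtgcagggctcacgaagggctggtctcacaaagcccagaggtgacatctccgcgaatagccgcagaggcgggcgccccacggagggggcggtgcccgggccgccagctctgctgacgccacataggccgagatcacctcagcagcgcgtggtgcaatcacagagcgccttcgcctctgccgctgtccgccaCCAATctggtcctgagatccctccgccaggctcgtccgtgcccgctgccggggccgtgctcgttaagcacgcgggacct
Msmo1: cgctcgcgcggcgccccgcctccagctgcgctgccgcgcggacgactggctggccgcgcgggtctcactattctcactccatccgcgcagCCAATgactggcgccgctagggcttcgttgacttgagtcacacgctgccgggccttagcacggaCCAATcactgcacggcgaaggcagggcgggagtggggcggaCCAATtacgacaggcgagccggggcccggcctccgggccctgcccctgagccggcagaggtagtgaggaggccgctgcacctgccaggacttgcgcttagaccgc
Lss: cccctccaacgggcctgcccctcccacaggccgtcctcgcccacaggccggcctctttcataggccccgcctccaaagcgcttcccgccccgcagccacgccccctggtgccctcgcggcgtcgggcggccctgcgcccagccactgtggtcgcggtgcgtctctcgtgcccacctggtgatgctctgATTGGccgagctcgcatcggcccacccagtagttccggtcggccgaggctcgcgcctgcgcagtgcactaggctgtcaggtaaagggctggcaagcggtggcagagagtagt
Nsdhl: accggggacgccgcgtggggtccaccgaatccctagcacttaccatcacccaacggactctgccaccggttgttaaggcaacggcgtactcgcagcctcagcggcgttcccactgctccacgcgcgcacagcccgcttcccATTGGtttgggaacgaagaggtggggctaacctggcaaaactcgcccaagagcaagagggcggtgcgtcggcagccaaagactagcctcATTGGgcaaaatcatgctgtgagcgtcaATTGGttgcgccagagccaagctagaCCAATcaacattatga
Idi1: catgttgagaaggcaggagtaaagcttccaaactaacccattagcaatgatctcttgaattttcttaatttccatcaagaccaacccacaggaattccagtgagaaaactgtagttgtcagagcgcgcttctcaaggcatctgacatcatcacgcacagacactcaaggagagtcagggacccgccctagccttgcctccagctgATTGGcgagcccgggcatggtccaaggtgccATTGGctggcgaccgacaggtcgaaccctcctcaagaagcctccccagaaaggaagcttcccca
In these windows the CCAAT box began 29 bases before the start in Cyp51, 160, 96 and 55 bases before it in Msmo1, 62 bases before it in Lss, and 45 and 14 bases before it in Idi1. The Nsdhl window held 4 CCAAT boxes. Of the 13 genes of the squalene to cholesterol arm, 10 had promoters in the RefSeq table, and of their 12 promoters 10 held a CCAAT box and 11 a GC box (GGGCGG) on one strand or the other. Among all 32851 promoters of the table, 37.4% held a CCAAT box and 35.7% a GC box. In the mevalonate arm 7 genes had 8 promoters, of which 6 held a CCAAT box and 5 a GC box. The promoter of Acat2, also a called gene, held a GC box and no CCAAT box and is not shown. The sterol regulatory element core TCACNCCAC was in 1.24% of all promoters, in none of the 10 genes of the squalene arm, and in Hmgcs1 alone among the 7 of the mevalonate arm. Hmgcs1, a synthase of the mevalonate arm, was not analysed here for expression. A CCAAT box on the opposite strand can share letters with a GC box. A match is a match of letters only, in the reference strain and not in CC027, and the promoters of Fdft1 and Sqle were not searched.

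**Figure D1:**
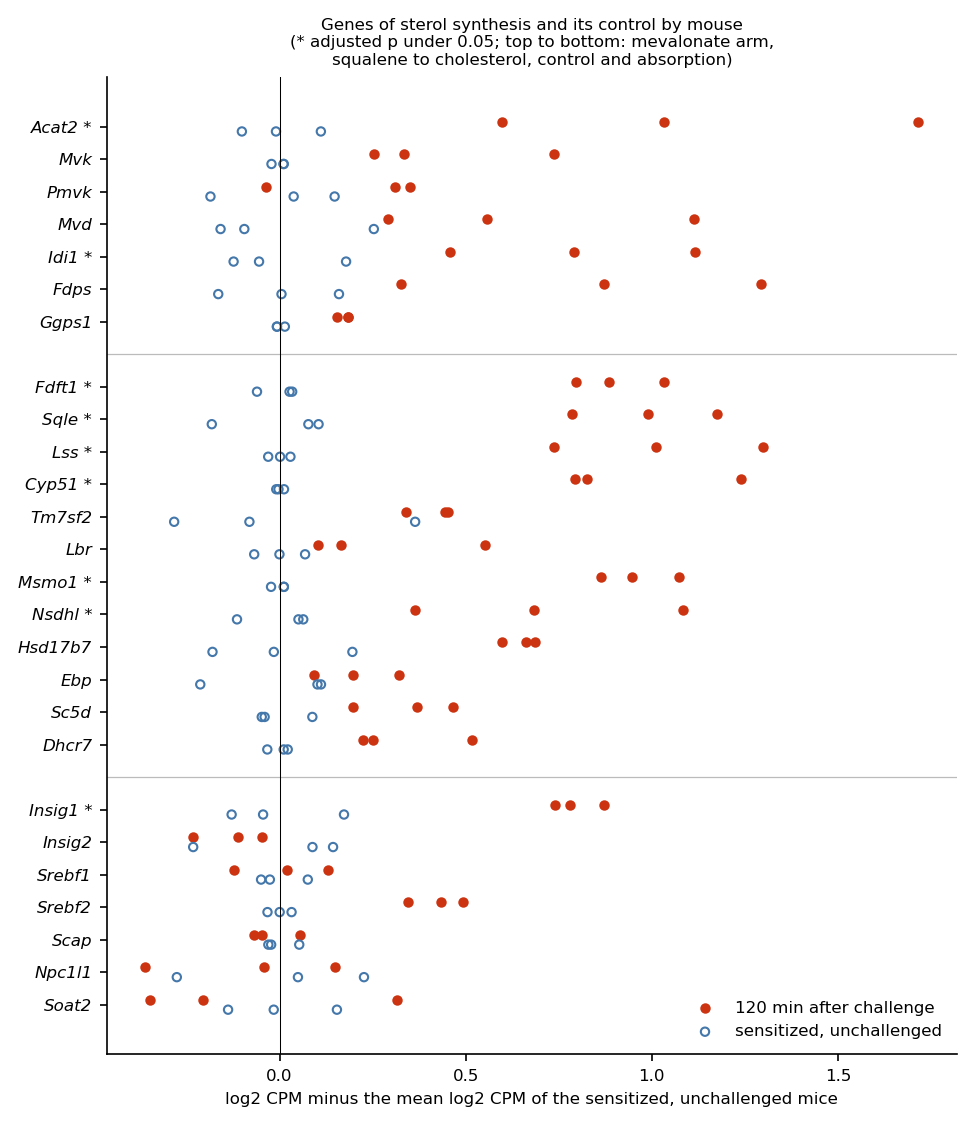
Level of each sterol gene in each mouse as log2 CPM minus the mean log2 CPM of the sensitized controls (x axis), with filled red points for the 3 mice at 120 min and open blue points for the 3 sensitized, unchallenged mice. All 3 mice at 120 min lie above all 3 controls for Fdft1, Sqle, Lss, Cyp51 and Msmo1, while Insig2, Srebf1, Scap, Npc1l1 and Soat2 overlap.

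The mevalonate arm leads from acetyl-CoA to farnesyl diphosphate. Acat2, the thiolase that makes acetoacetyl-CoA, was at 40.2, 29.7 and 64.5 CPM at 120 min and 21.2, 18.3 and 19.5 CPM in the controls (1.19 ± 0.24, adjusted p = 0.0290). Reads of Acat2 may be shared with its near-identical copy Acat3, so its value is less certain. Idi1, the isopentenyl diphosphate isomerase, was at 194, 154 and 243 CPM at 120 min and 127, 103 and 108 CPM in the controls (0.81 ± 0.19, adjusted p = 0.0478). The 120 min mice spread more widely than the controls for both genes, with replicate 3 the highest and replicate 2 the lowest.

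In the mevalonate arm 5 measured members did not pass. Fdps, which makes farnesyl diphosphate, was at 98.4, 67.5 and 132 CPM at 120 min and 60.1, 48.0 and 54.0 CPM in the controls (0.88 ± 0.21, adjusted p = 0.0562). The decarboxylase gene Mvd had a fold change of 0.69 ± 0.23 (adjusted p = 0.141) and the mevalonate kinase gene Mvk one of 0.46 ± 0.22 (adjusted p = 0.298). Pmvk, the next kinase, and Ggps1, which leads to protein prenylation rather than to sterols, had the smallest values at 0.21 ± 0.17 and 0.18 ± 0.14.

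From squalene onward all 13 genes had positive values, 10 had an unadjusted p under 0.05 and 6 passed the threshold. In 11 the 120 min mice all lay above the controls, as in 13.3% of all genes tested. Fdft1 (ENSMUSG00000021273.10, chr14:63145150-63179578, minus strand) was at 139, 148 and 164 CPM at 120 min and 76.8, 82.0 and 81.6 CPM in the controls (0.91 ± 0.13, adjusted p = 0.00514). Sqle, the squalene epoxidase, was at 167, 145 and 190 CPM at 120 min and 74.1, 90.4 and 88.7 CPM in the controls (0.99 ± 0.17, adjusted p = 0.0170). Lss, which closes the rings to lanosterol, was at 82.8, 68.4 and 101 CPM at 120 min and 41.9, 40.2 and 41.1 CPM in the controls (1.03 ± 0.17, adjusted p = 0.0170). In all 3 genes the lowest mouse at 120 min was well above the highest control.

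The demethylation steps after lanosterol followed the same pattern. Cyp51, the lanosterol demethylase, was at 172, 168 and 229 CPM at 120 min and 96.8, 97.8 and 96.4 CPM in the controls (0.97 ± 0.14, adjusted p = 0.00692). Msmo1, a sterol methyl oxidase, was at 195, 184 and 213 CPM at 120 min and 102, 99.6 and 102 CPM in the controls (0.96 ± 0.15, adjusted p = 0.0152). Nsdhl, the dehydrogenase that acts with it, was at 51.6, 41.4 and 68.2 CPM at 120 min and 33.6, 29.7 and 33.3 CPM in the controls (0.74 ± 0.17, adjusted p = 0.0482). The controls of Cyp51 and Msmo1 lay within a few CPM of each other. Among the members that did not pass, Hsd17b7, a later reductase, had a log2 fold change of 0.64 ± 0.17 (adjusted p = 0.0669). Lbr, Sc5d and Dhcr7 lay between the values of Ebp (0.20 ± 0.14) and Tm7sf2 (0.39 ± 0.19), and none of these 5 passed.

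Among 15 genes of SREBP control and cholesterol uptake, 3 rose, 0 fell and the median was 0.01, while 0.728% of all genes tested rose. Among the 3 on the list that rose was Insig1, itself a target of SREBP-2. Insig1 was at 212, 232 and 218 CPM at 120 min and 123, 143 and 116 CPM in the controls (0.79 ± 0.18, adjusted p = 0.0478). Srebf2, the gene of SREBP-2, did not pass, at 283, 314 and 301 CPM at 120 min and 223, 218 and 228 CPM in the controls (0.42 ± 0.12, adjusted p = 0.0993). Srebf1 differed by 0.01 ± 0.17 and Insig2 by −0.14 ± 0.15, with overlapping mice.

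The count of called sterol genes depended on the libraries and the fit, while the medians moved little. Leaving out any of the 6 libraries except 120 min replicate 2, 1 or 2 of the 13 genes from squalene onward passed, and 6 passed without that library. With the level of lymphocyte and plasma cell markers as a covariate 1 passed, and with DESeq2 8 passed. The list median stayed between 0.62 and 0.88 in all these fits, and that of the mevalonate arm between 0.52 and 0.87. Fdft1 passed in every one of the fits that left out 1 of the 6 libraries and in every alternative listed under processing.

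Fatty acid synthesis is under SREBP-1 and shares acetyl-CoA with sterol synthesis. Of 12 measured genes 1 rose and 0 fell, with a median of 0.29, while 0.728% of all genes tested rose. The gene of the list that rose was Fasn, fatty acid synthase, at 298, 259 and 422 CPM at 120 min and 171, 183 and 190 CPM in the controls (0.85 ± 0.18, adjusted p = 0.0378). The stearoyl-CoA desaturase Scd2 was at 45.7, 11.2 and 83.1 CPM at 120 min and 11.2, 9.59 and 9.96 CPM in the controls, and did not pass (2.19 ± 0.75, adjusted p = 0.167). Aacs, which makes acetoacetyl-CoA from ketone bodies, and Mid1ip1, an activator of acetyl-CoA carboxylase, were not on a list and were chosen after their values were seen. Aacs was at 95.9 ± 25.1 CPM at 120 min and 49.5 ± 6.46 CPM in the controls (0.95 ± 0.20, adjusted p = 0.0312), and Mid1ip1 at 106 ± 6.79 CPM at 120 min and 64.7 ± 7.83 CPM in the controls (0.71 ± 0.16, adjusted p = 0.0435). Targets of LXR, the receptor that drives sterol efflux, gave no call in either direction among 9 genes, with a median of 0.04. In edgeR 1 of them had an unadjusted p under 0.05, and DESeq2 called 0.

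Some of the sterol genes that rose over the sensitized controls also differed from the earlier times. Fdft1 averaged 80.2 ± 2.9 CPM in the sensitized controls, 92.2 ± 13.3 CPM at 30 min, 95.0 ± 3.93 CPM at 60 min and 151 ± 12.7 CPM at 120 min, with 88.7 ± 12.7 CPM in the PBS mice. The 120 min level of Fdft1 was above that at 60 min (0.66, adjusted p = 0.0259) and in the PBS mice (adjusted p = 0.0156). Msmo1 averaged 101 ± 1.52 CPM in the sensitized controls, 103 ± 12.1 CPM at 30 min, 102 ± 16.1 CPM at 60 min and 198 ± 14.6 CPM at 120 min, with 101 ± 21.9 CPM in the PBS mice. For Msmo1 the 120 min mice were also above the 60 min mice (0.95, adjusted p = 0.0190). Sqle did not differ past the threshold between 120 min (167 ± 22.5 CPM) and 60 min (103 ± 16.6 CPM, adjusted p = 0.0584), nor did Acat2 (adjusted p = 0.0809) or Insig1 (adjusted p = 0.0941). Against the 30 min mice Acat2 (adjusted p = 0.190), Nsdhl (adjusted p = 0.111) and Idi1 (adjusted p = 0.0544) did not pass. Over all genes the comparison with 60 min held 0 calls when 120 min replicate 1 or replicate 3 was left out. These contrasts share the 120 min libraries with the comparison above, and are not independent of it.

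**Figure D2:**
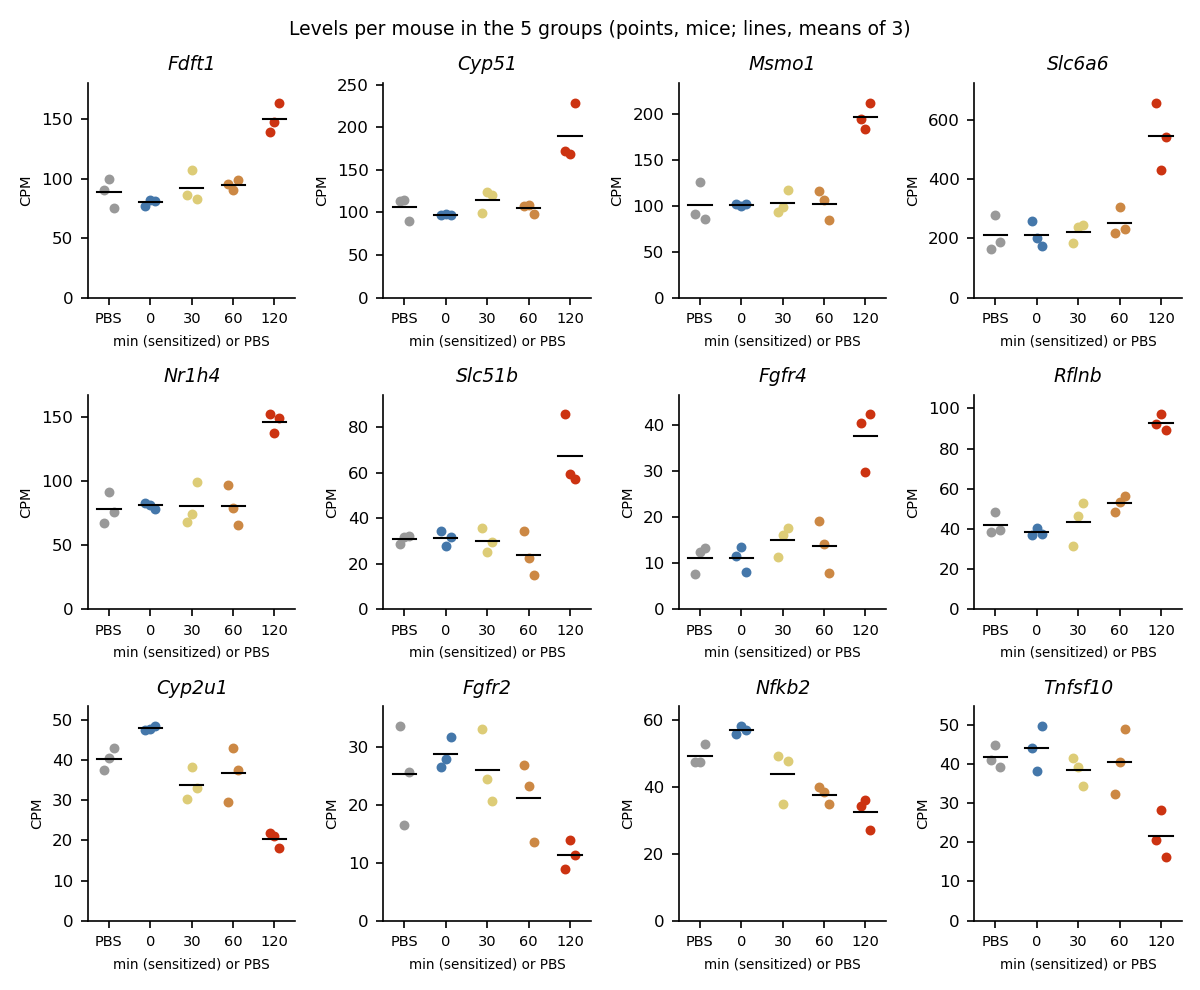
CPM of 12 genes (y axes start at 0) in each mouse, by group on the x axis: mice given PBS, then sensitized mice unchallenged (0) and 30, 60 and 120 min after challenge; lines are means of 3. Fdft1, Cyp51, Msmo1, Slc6a6, Nr1h4, Slc51b, Fgfr4 and Rflnb have their 3 highest mice at 120 min, and Cyp2u1 and Tnfsf10 their 3 lowest. Tnfsf10 was chosen after its values were seen.

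Bile acids are reabsorbed by enterocytes and sensed there by the nuclear receptor FXR, the product of Nr1h4, whose targets include the basolateral exporter subunits Slc51a and Slc51b and the hormone Fgf15. Of 9 measured genes of this axis 2 rose and 0 fell, with a median of 0.86, while 0.728% of all genes tested rose. Nr1h4 (ENSMUSG00000047638.15, chr10:89454234-89533585, minus strand) was at 152, 137 and 149 CPM at 120 min and 83.0, 81.4 and 78.0 CPM in the controls (0.85 ± 0.16, adjusted p = 0.0290). Slc51b (ENSMUSG00000053862.6, chr9:65412714-65422955, minus strand) was at 85.8, 59.4 and 57.4 CPM at 120 min and 34.4, 27.6 and 31.9 CPM in the controls (1.11 ± 0.24, adjusted p = 0.0360). Both were clear of every control. Slc51b averaged 31.3 ± 3.47 CPM in the sensitized controls, 30.1 ± 5.31 CPM at 30 min, 23.9 ± 9.6 CPM at 60 min and 67.5 ± 15.8 CPM at 120 min, with 30.8 ± 2.01 CPM in the PBS mice, and its fold change of 120 over 60 min was 1.49 (adjusted p = 0.0190).

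Other members of the axis were higher without passing. The ileal bile acid importer Slc10a2 was at 108, 45.8 and 80.4 CPM at 120 min and 25.2, 12.7 and 8.76 CPM in the controls (2.32 ± 0.56, adjusted p = 0.0688). Slc51a was at 364, 345 and 269 CPM at 120 min and 223, 217 and 210 CPM in the controls (0.59 ± 0.16, adjusted p = 0.0866), and Fgf15 at 66.7, 73.9 and 26.8 CPM at 120 min and 25.8, 16.3 and 14.9 CPM in the controls (1.55 ± 0.63, adjusted p = 0.232). These mice do not overlap between groups for any of the 3 genes. Of the 9 genes of the axis, 6 were without overlap and higher, as were 13.3% of all genes tested. The corepressor Nr0b2, another target of FXR, lay near 1 CPM in both groups (−0.24 ± 0.47). Leaving out any 1 of the 6 libraries except 120 min replicate 2 left 0 members of this list past the threshold, and the covariate of lymphocyte markers also left 0.

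A list of fibroblast growth factor receptors that also holds Fgf15 had 6 measured genes, of which 1 rose and 1 fell. Over all genes tested 0.728% rose and 0.528% fell. Fgfr4, which pairs with β-klotho as the receptor of Fgf15 in liver (ENSMUSG00000005320.9, chr13:55152640-55168759, plus strand), was at 40.4, 29.8 and 42.4 CPM at 120 min and 11.5, 13.5 and 8.05 CPM in the controls (1.77 ± 0.31, adjusted p = 0.0198). Fgfr2, whose epithelial form responds to ligands of the underlying stroma (ENSMUSG00000030849.18, chr7:130162451-133123350, minus strand), was at 8.99, 13.9 and 11.3 CPM at 120 min and 26.5, 28 and 31.7 CPM in the controls (−1.34 ± 0.28, adjusted p = 0.0352). Fgfr3 overlapped between groups (0.15 ± 0.23). Fgfbp1, which frees fibroblast growth factors from the matrix and was chosen after its values were seen, was at 79.0 ± 9.4 CPM at 120 min and 45.5 ± 5.16 CPM in the controls (0.80 ± 0.14, adjusted p = 0.0170).

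Cells under osmotic stress raise transporters of small organic osmolytes through the transcription factor NFAT5. Of 6 measured genes of that response 2 rose, 0 fell and the median was 0.42, while 0.728% of all genes tested rose. The taurine transporter Slc6a6 (ENSMUSG00000030096.8, chr6:91684053-91759066, plus strand) was at 660, 433 and 544 CPM at 120 min and 260, 200 and 176 CPM in the controls (1.36 ± 0.22, adjusted p = 0.0165). Nfat5 was at 70.0, 72.8 and 60.9 CPM at 120 min and 46.1, 50 and 43.4 CPM in the controls (0.55 ± 0.11, adjusted p = 0.0310). The 2 genes had different courses. Nfat5 averaged 46.5 ± 3.32 CPM in the sensitized controls, 47.6 ± 4.11 CPM at 30 min, 64.2 ± 6.09 CPM at 60 min and 67.9 ± 6.22 CPM at 120 min, and its 120 min and 60 min levels did not differ past the threshold (adjusted p = 0.732). Slc6a6 averaged 212 ± 42.9 CPM in the sensitized controls, 222 ± 32.6 CPM at 30 min, 252 ± 47.5 CPM at 60 min and 546 ± 114 CPM at 120 min, and its fold change of 120 over 60 min was 1.11 (adjusted p = 0.0296). The inositol transporter Slc5a3 (0.29 ± 0.25) and aldose reductase Akr1b3 (0.04 ± 0.20), also targets of NFAT5, overlapped between groups.

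In all, 188 of the 14968 genes passed at 120 min, or 1.26%, with 109 higher and 79 lower. A change of at least 2-fold was reached by 20 of the genes that rose and 31 of those that fell, and 182 were protein coding. The mice of the 2 groups did not overlap for any of the 188. Among all genes tested 13.3% were without overlap and higher, and 13.3% without overlap and lower. An unadjusted p under 0.05 was held by 2650 genes. Leaving out 1 library gave 7 to 16 genes past the threshold for 5 of the 6 libraries. It gave 240 without 120 min replicate 2, of which 125 were among the 188. A fit of only the groups compared called 134 genes, of which 84 were among the 188. A correction for transcript length left 34, and the marker covariate 15, with no change of sign among the 188 in any fit.

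**Figure D3:**
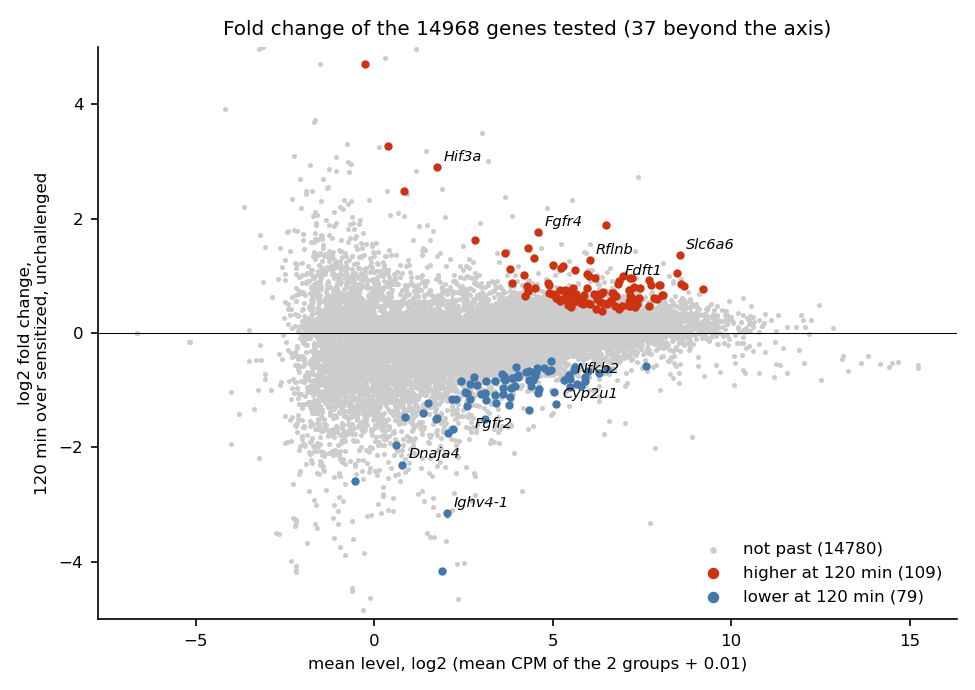
Log2 fold change of 120 min over the sensitized, unchallenged mice (y axis) against mean level as log2 of mean CPM + 0.01 (x axis) for the genes tested, with 37 of them beyond the y axis. Red points are the 109 genes that rose, blue points the 79 that fell and grey points genes that did not pass.

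The largest rises among named genes with at least 2 CPM at 120 min were of transcripts that were scarce in the controls. Hif3a, a relative of the hypoxia-inducible factors that lacks much of their activating capacity (ENSMUSG00000004328.15, chr7:17031507-17062427, minus strand), was at 7.53, 3.57 and 6.8 CPM at 120 min and 0.974, 1.08 and 0.283 CPM in the controls (2.90 ± 0.46, adjusted p = 0.0152). Prkag3, a regulatory subunit of the energy sensor AMPK, was at 4.57, 2.40 and 2.07 CPM at 120 min and 0.410, 0.754 and 0.424 CPM in the controls (2.49 ± 0.51, adjusted p = 0.0310). Epas1, the gene of HIF-2α, was at 20.2, 17.6 and 20.0 CPM at 120 min and 10.4, 8.40 and 7.84 CPM in the controls (1.12 ± 0.22, adjusted p = 0.0290). Among 17 targets of hypoxia and glycolysis 1 rose, the hexokinase Hk2 at 125 ± 9.97 CPM at 120 min and 76.7 ± 8.22 CPM in the controls (0.70 ± 0.15, adjusted p = 0.0338), with a list median of 0.14. Over all genes tested 0.728% rose. A catalytic subunit of AMPK, Prkaa2, chosen after its values were seen, was at 59.7 ± 0.716 CPM at 120 min and 34.5 ± 7.81 CPM in the controls (0.79 ± 0.15, adjusted p = 0.0290).

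Rflnb and Pgap1 rose with little spread between mice. Rflnb, an actin regulator that binds filamin (ENSMUSG00000020846.6, chr11:76019194-76027782, minus strand), was at 92.2, 97.2 and 89.3 CPM at 120 min and 37.0, 40.6 and 37.4 CPM in the controls (1.28 ± 0.16, adjusted p = 0.00284). Pgap1, which remodels the lipid anchor of GPI-linked proteins (ENSMUSG00000073678.4, chr1:54472994-54557684, minus strand), was at 49.1, 50.8 and 55.9 CPM at 120 min and 21.1, 25.2 and 24.9 CPM in the controls (1.13 ± 0.14, adjusted p = 0.00299). Both were also higher at 120 min than at 60, at 30 min and in the PBS mice. With Fdft1, Cyp2u1 and Ighv4-1 they were among the 7 genes past the threshold in all 6 fits that left out 1 library and in all 10 other alternatives. The other large rises were Fam43a (1.62 ± 0.29), the linker histone gene Hist1h1d (1.48 ± 0.28), the chloride channel accessory gene Clca3a1 (1.39 ± 0.30), Ddah1, which breaks down inhibitors of nitric oxide synthase (1.30 ± 0.22), and Gp1bb (1.17 ± 0.20). Single members of the histone and Clca3a families may share reads with near-identical copies.

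Other genes that rose were the single call of their list or were on no list, while 0.728% of all genes tested rose. Apobec1, the enzyme that edits the messenger of apolipoprotein B in the gut and that was chosen after its values were seen, was at 87.2, 81.5 and 90.2 CPM at 120 min and 49.0, 36.8 and 43.9 CPM in the controls (0.997 ± 0.16, adjusted p = 0.0165). Cdx1, an intestinal homeobox factor, rose by 0.54 ± 0.12 and was the only one of 11 epithelial identity genes to pass. Smarcc1, a core subunit of the SWI/SNF chromatin remodeller, rose by 0.62 ± 0.13 among 20 subunits with a median of 0.05, and its 60 min level (76.2 ± 7.95 CPM) was no lower than that at 120 min (68.1 ± 9.15 CPM). Ddx21, an RNA helicase of ribosome assembly, rose by 0.75 ± 0.14, and all 24 measured genes of ribosome biogenesis were positive with a median of 0.47. Of the 24, 12 had an unadjusted p under 0.05 in edgeR. In 11 the 120 min mice all lay above the controls, as in 13.3% of all genes tested.

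The 79 genes that fell, or 0.528% of those tested, included an enzyme of fatty acid metabolism and a cochaperone. Cyp2u1, a cytochrome P450 that hydroxylates long-chain fatty acids (ENSMUSG00000027983.13, chr3:131288441-131303227, minus strand), was at 21.9, 21.2 and 18.1 CPM at 120 min and 47.7, 47.8 and 48.7 CPM in the controls (−1.24 ± 0.14, adjusted p = 0.00162). Cyp2u1 averaged 48.1 ± 0.533 CPM in the sensitized controls, 33.8 ± 4.05 CPM at 30 min, 36.8 ± 6.71 CPM at 60 min and 20.4 ± 2.03 CPM at 120 min. Dnaja4, a cochaperone of HSP70, was at 0.753, 0.373 and 0.586 CPM at 120 min and 2.61, 1.67 and 4.31 CPM in the controls (−2.30 ± 0.46, adjusted p = 0.0290). Fam214a was at 2.87, 2.13 and 1.62 CPM at 120 min and 6.41, 7.16 and 7.63 CPM in the controls (−1.67 ± 0.24, adjusted p = 0.00692). The rest of the 15 largest falls ran from −1.95 for Zfp438 to −1.18 for Anks6, among them Dennd4b, which acts on Rab GTPases of vesicle traffic (−1.75 ± 0.34), Tctn3 of the ciliary transition zone (−1.49 ± 0.30), and the calcineurin regulator Rcan3 (−1.23 ± 0.22). In the zinc finger family named Zfp, 312 genes were tested, 2 rose, 3 fell, and 213 had negative values with a median of −0.18.

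Of 17 NF-κB components and targets 1 fell and 0 rose, with a median of −0.16. Among all genes tested 0.528% fell, and the 1 call describes Nfkb2 rather than the list. Nfkb2, which encodes the p100 precursor of the alternative pathway (ENSMUSG00000025225.15, chr19:46304320-46312385, plus strand), was at 34.3, 35.9 and 27.2 CPM at 120 min and 55.7, 58.3 and 57.0 CPM in the controls (−0.81 ± 0.14, adjusted p = 0.0170). Nfkb2 averaged 57.0 ± 1.33 CPM in the sensitized controls, 43.9 ± 7.98 CPM at 30 min, 37.7 ± 2.71 CPM at 60 min and 32.5 ± 4.64 CPM at 120 min, with 49.2 ± 3.02 CPM in the PBS mice. The inhibitor Nfkbia was level between groups (0.03 ± 0.15). Other genes that fell are named here after their values were seen, and are no list. They were Mavs, the adaptor of RNA sensors (−0.73 ± 0.15), Rnf31, a subunit of the linear ubiquitin ligase (−0.67 ± 0.16), Naip5, a sensor of flagellin (−0.57 ± 0.13), Tnfsf10, the death ligand TRAIL (−1.03 ± 0.19), and Rfx5, a factor of MHC class II promoters (−1.06 ± 0.20). The 8 MHC class II genes tested gave no call in edgeR or DESeq2, with 0 at an unadjusted p under 0.05 and a median of −0.45. The 17 interferon-stimulated genes gave no call in edgeR or DESeq2, with 2 at an unadjusted p under 0.05 and a median of −0.59 that was −0.13 without sensitized control replicate 3. Of 15 heat shock genes 1 fell, Bag3, at 35.9, 41.1 and 41.0 CPM at 120 min and 56.3, 53.9 and 68.7 CPM in the controls (−0.60 ± 0.14, adjusted p = 0.0435). Nfya, a subunit of the CCAAT-binding factor and likewise chosen afterwards, was at 17 ± 2.86 CPM at 120 min and 27.7 ± 3.83 CPM in the controls (−0.71 ± 0.15, adjusted p = 0.0312).

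Genes induced by glucocorticoids were higher as a list in all 3 mice at 120 min, without a call. Their summed level was 2620 to 3080 CPM at 120 min and 1680 to 2070 CPM in the controls. It was 1510 to 2090 CPM at 60 min, 1790 to 2070 CPM at 30 min and 1490 to 1850 CPM in the PBS mice. Of 18 measured, 15 were positive with a median of 0.52, 9 had an unadjusted p under 0.05, and 0 passed in edgeR, while DESeq2 called 6 higher and limma-voom 1. Fkbp5, a cochaperone of the receptor, was at 381, 122 and 378 CPM at 120 min and 76.2, 40.4 and 15.8 CPM in the controls (2.73 ± 0.72, adjusted p = 0.0940). Zbtb16, a zinc finger repressor, was at 19.3, 5.44 and 19.8 CPM at 120 min and 2.56, 0.646 and 0.636 CPM in the controls (3.50 ± 1.07, adjusted p = 0.130). In both genes 120 min replicate 2 was far below the other mice of its group, and the controls also differed several-fold among themselves. The clock and glucocorticoid target Per1 was at 168, 195 and 151 CPM at 120 min and 167, 128 and 102 CPM in the controls (0.37 ± 0.24, adjusted p = 0.458). Of 18 clock genes 0 passed in edgeR or DESeq2 and 0 had an unadjusted p under 0.05, with a median of 0.22.

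Mitosis genes were higher as a list at 120 min than in the sensitized controls, without a call. Summed mitosis levels were 528 to 883 CPM at 120 min and 444 to 512 CPM in the sensitized controls. They were 759 to 823 CPM at 60 min, 620 to 951 CPM at 30 min and 560 to 715 CPM in the PBS mice. The higher mitosis level was thus not particular to 120 min. All 21 measured mitosis genes were positive with a median of 0.51, 12 had an unadjusted p under 0.05, 0 passed in edgeR and 1 in DESeq2. In 8 of the 21 the 120 min mice all lay above the controls, as in 13.3% of all genes tested. Ccnb1, a cyclin of mitotic entry, was at 19.3, 22.7 and 28.6 CPM at 120 min and 14.5, 15.6 and 15.7 CPM in the controls (0.63 ± 0.21, adjusted p = 0.145). Ccnb1 averaged 15.2 ± 0.677 CPM in the sensitized controls, 23.3 ± 2.24 CPM at 30 min, 23.4 ± 5.3 CPM at 60 min and 23.5 ± 4.71 CPM at 120 min, with 21.2 ± 6.43 CPM in the PBS mice. The list median was 0.24 without 120 min replicate 3, whose summed mitosis level of 883 CPM was the highest of its group. DNA replication genes were also all positive, with 21 measured, 3 at an unadjusted p under 0.05, 0 past in edgeR, 1 in DESeq2 and a median of 0.36. Their sums overlapped, at 616 to 996 CPM at 120 min and 534 to 670 CPM in the sensitized controls. In 0 of these 21 genes did the 120 min mice all lie above the controls.

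Markers of goblet and Paneth cells were lower than in the sensitized controls, without a call. Of 14 enteroendocrine genes 12 were negative and 0 had an unadjusted p under 0.05 in edgeR. Enteroendocrine sums overlapped, at 95.2 to 202 CPM at 120 min and 193 to 241 CPM in the controls. All 13 measured genes of goblet cells had negative values, their median being −0.75, 8 had an unadjusted p under 0.05, 0 passed in edgeR and DESeq2 called 2. Their summed level was 7680 to 8440 CPM at 120 min and 10100 to 16400 CPM in the controls. It was 8060 to 12100 CPM at 60 min and 8230 to 12800 CPM at 30 min, both overlapping the 120 min range, and 9040 to 19100 CPM in the PBS mice. Clca1, a secreted goblet cell product, was at 659, 825 and 783 CPM at 120 min and 901, 1740 and 1610 CPM in the controls (−0.91 ± 0.26, adjusted p = 0.0922). All 13 measured genes of Paneth cells had negative values, their median being −0.70, 10 had an unadjusted p under 0.05, 0 passed in edgeR and DESeq2 called 1. Their summed level was 2530 to 5230 CPM at 120 min and 5630 to 6700 CPM in the controls, and 9250 to 11500 CPM at 60 min. At 30 min it was 6340 to 11800 CPM, and in the PBS mice 6290 to 9720 CPM. The lectin Itln1 averaged 1010 ± 113 CPM in the sensitized controls, 1540 ± 472 CPM at 30 min, 2080 ± 673 CPM at 60 min and 631 ± 190 CPM at 120 min. For Itln1 the mice at 120 min were below those at 60 min (adjusted p = 0.0190) and not past the threshold against the sensitized controls (−0.68 ± 0.27, adjusted p = 0.205).

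**Figure D4:**
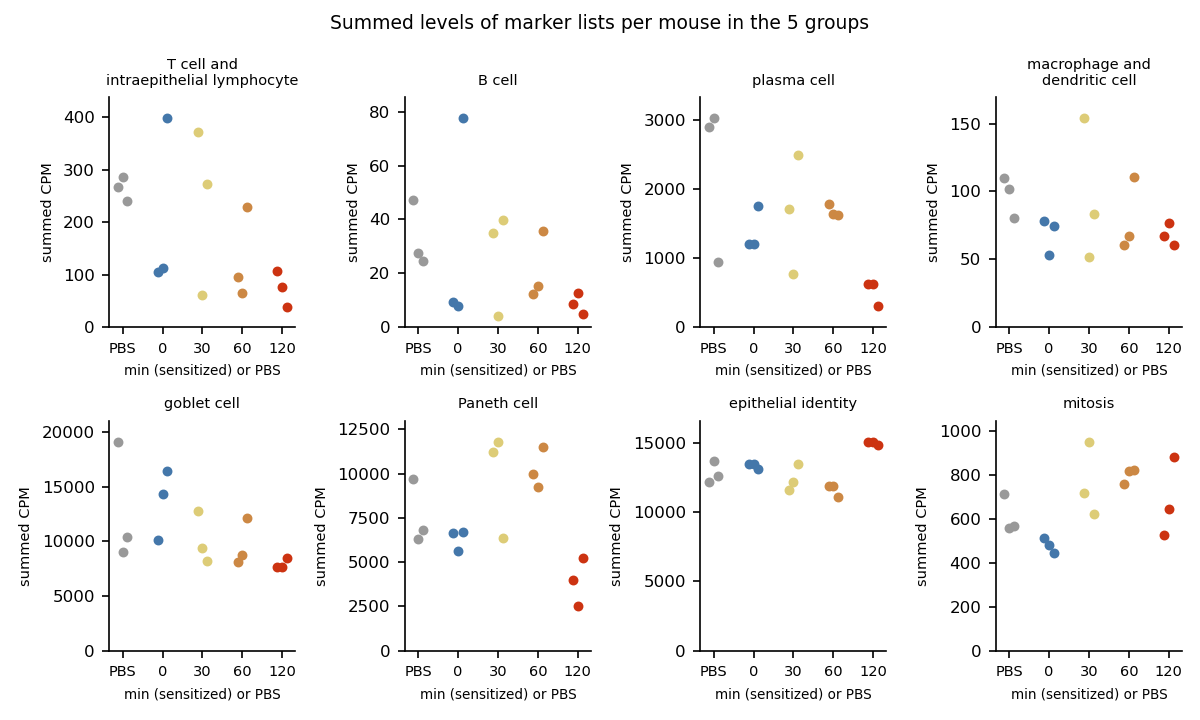
Summed CPM of 8 marker lists (y axes start at 0) in each mouse by group on the x axis: mice given PBS, then sensitized mice unchallenged (0) and 30, 60 and 120 min after challenge. Plasma cell sums are 310 to 630 CPM at 120 min against 1200 to 1760 CPM in the sensitized controls, while T cell and B cell sums of the controls are raised by 1 mouse.

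Most genes on the lists of plasma cells, T cells and B cells had lower values at 120 min, while macrophage and dendritic cell genes were divided. Of 9 genes of plasma cells 8 had negative values, the median was −1.90 and 8 had an unadjusted p under 0.05. None of the 9 fell in edgeR, while DESeq2 called 4 lower. The constant region of IgA (Igha) was at 302, 249 and 80.6 CPM at 120 min and 680, 659 and 886 CPM in the controls (−1.82 ± 0.58, adjusted p = 0.143), and the joining chain Jchain at 50.5, 48.2 and 19.6 CPM at 120 min and 123, 115 and 162 CPM in the controls (−1.76 ± 0.52, adjusted p = 0.120). The gene segment Ighv4-1 fell, at 0.942, 0.853 and 0.676 CPM at 120 min and 7.33, 4.74 and 10 CPM in the controls (−3.15 ± 0.36, adjusted p = 0.00162). Reads of immunoglobulin segments may be shared between related segments. Sdc1, which is on the plasma cell list and is also made by epithelium, rose by 0.59 ± 0.14 (adjusted p = 0.0482).

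All 19 measured genes of T cells and intraepithelial lymphocytes were negative with a median of −1.53, 7 had an unadjusted p under 0.05, 0 passed in edgeR and DESeq2 called 3. Cd8a was at 10.5, 6.56 and 2.43 CPM at 120 min and 13.5, 12.2 and 35.2 CPM in the controls (−1.64 ± 0.71, adjusted p = 0.258). The summed level of the list was 106, 75.9 and 37.6 CPM at 120 min and 105, 113 and 398 CPM in the controls, so the groups touched and control replicate 3 was far above the rest. Without that control the list median was −0.83. All 8 genes of B cells had negative values, their median being −1.78, of which 1 had an unadjusted p under 0.05, 0 passed in edgeR and DESeq2 called 1, and without control replicate 3 that median turned to 0.32. The B cell sum was 8.43, 12.7 and 4.91 CPM at 120 min and 9.48, 7.92 and 77.6 CPM in the controls. Of 13 macrophage and dendritic cell genes 6 had positive and 7 negative values, the median being −0.11, with overlapping sums of 60.7 to 76.8 CPM at 120 min and 53.1 to 78.5 CPM in the controls. The mean log2 CPM of lymphocyte and plasma cell markers was 1.42 to 2.21 at 120 min and 2.38 to 3.93 in the controls, so this level and the groups cannot be told apart without an assumption of linearity, and its part in the counts of called genes was not tested beyond the covariate fit.

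Genes linked to type 2 responses gave no call in edgeR or DESeq2 among the 5 of 13 high enough to test, with 0 at an unadjusted p under 0.05. Tslp, Il25, Il4, Il5 and Il13 were too low to test. The epithelial alarmin Il33 was at 45.6, 24.3 and 24.8 CPM at 120 min and 37.6, 13.6 and 18.9 CPM in the controls (0.43 ± 0.45, adjusted p = 0.667). Of 11 mast cell genes 4 were high enough to test, and 0 passed in edgeR or DESeq2, with 2 at an unadjusted p under 0.05 and a median of −1.28. Mcpt1, a protease of mucosal mast cells, was at 3.25, 2.13 and 1.22 CPM at 120 min and 1.90, 15.0 and 7.56 CPM in the controls (−1.89 ± 0.75, adjusted p = 0.218). The tryptase genes Tpsb2 and Tpsab1 and the chymase Mcpt4 were listed at 0 in all 3 libraries at 120 min. These genes were among those too low to test, so no difference from the controls can be read from the zeros. Of 21 immediate early genes 0 passed in edgeR, 5 had an unadjusted p under 0.05, DESeq2 called 2 lower, and the median was −0.14. Fos was at 1580, 1320 and 1610 CPM at 120 min and 1640, 1400 and 1350 CPM in the controls (0.04 ± 0.17, adjusted p = 0.935), and Egr1 at 1100, 1140 and 1380 CPM at 120 min and 1400, 1370 and 1300 CPM in the controls (−0.17 ± 0.18, adjusted p = 0.680).

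**Figure D5:**
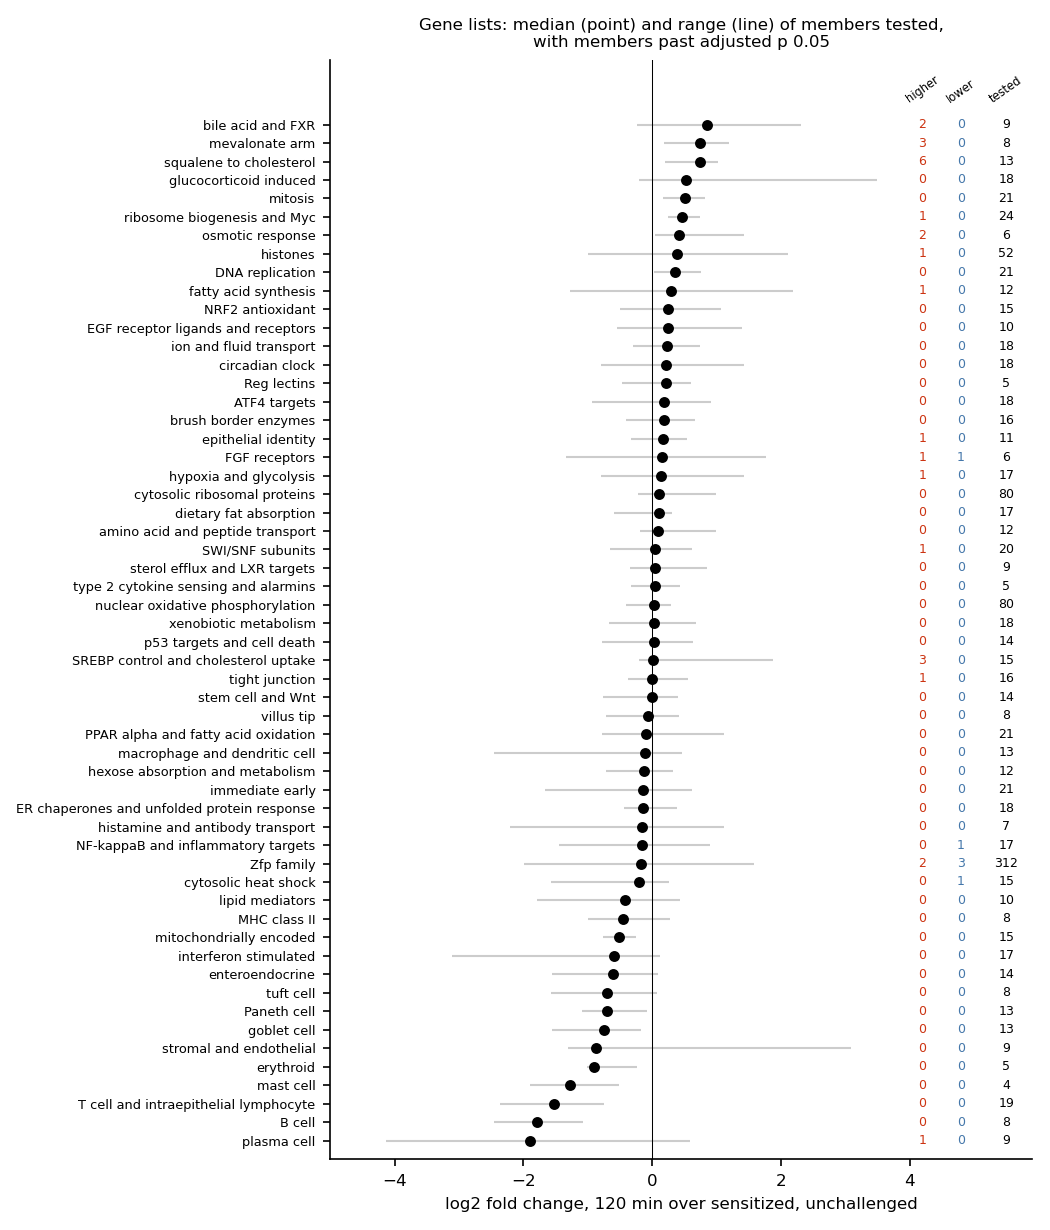
Median (point) and range (line) of log2 fold change, 120 min over the sensitized, unchallenged mice (x axis), for each gene list with at least 4 genes tested, with the numbers of genes that rose, fell and were tested at the right. The lists of the bile acid axis, the mevalonate arm and squalene to cholesterol have the highest medians, and lymphocyte and plasma cell lists the lowest.

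Set against the other groups, the 120 min mice differed from the PBS mice in 176 genes, or 1.18% of those tested, with 109 higher (0.728%) and 67 lower (0.448%). They differed from the 60 min mice in 168 genes, or 1.12%, with 88 higher (0.588%) and 80 lower (0.534%), and from the 30 min mice in 151 genes, or 1.01%, with 89 higher (0.595%) and 62 lower (0.414%). All 3 counts rest on single libraries. Leaving out 1 library at a time, they ran from 5 to 116, from 0 to 1151 and from 4 to 67.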

How the data were processed

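Messenger RNA from jejunal epithelial cells was sequenced in 15 libraries, 3 in each of 5 groups. The submitters' processing notes name cutadapt 1.18, Salmon 1.2.1 and the build mm10. The deposited files give estimated counts and TPM per transcript, and only the estimated counts deposited by the authors were used. No label states whether the libraries keep strand.

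Estimated counts were summed per gene with GENCODE M21 and rounded to whole numbers. Of 139058 transcripts, 1115 matched no gene of that release and held 0.37% to 0.6% of counts. Totals were 15661513 to 22691349 per library. The filterByExpr function of edgeR 4.0.16 left 14968 genes, and 1 quasi-likelihood model with a mean for each group was fitted to all 15 libraries after TMM scaling. The standard error is the fold change divided by the square root of F.

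The members, lists and tests were chosen with earlier results of these data known. Genes named by rule were the 15 largest rises and falls past the threshold with at least 2 CPM in the higher group, without numbered gene models and immunoglobulin segments, the 10 smallest p-values, called list members, up to 4 members of a list with none called, and 8 genes named outright. Replicates were numbered in accession order, and the numbers pair nothing.

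Alternatives were DESeq2 1.42.0, limma-voom 3.58.1, other scaling and filters, a fit of only the groups compared, transcript length offsets, removal of mitochondrially encoded genes and of each library in turn, and, chosen after seeing the data, covariates for lymphocyte and plasma cell markers and for the mitochondrially encoded share. The procedure was tested on simulated data. Some genes of the lists are counted in them and not reported here singly.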

Additional observations from a re-analysis of the deposited data

Results flagged for a closer look

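Genes whose 120 min and 60 min levels differed past the threshold in the edgeR test of that difference are given here as log2 differences of 120 min minus 60 min. Since both times share the sensitized controls, each is the effect at 120 min minus the effect at 60 min. Among sterol genes the differences were 1.03 for Lss, 0.95 for Msmo1, 0.89 for Nsdhl, 0.87 for Idi1, 0.85 for Cyp51 and 0.66 for Fdft1.

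Among transporters, receptors and other genes that rose they were 1.49 for Slc51b, 1.45 for Fgfr4, 1.31 for Clca3a1, 1.19 for Ddah1, 1.11 for Slc6a6, 0.97 for Epas1, 0.87 for Nr1h4, 0.82 for Rflnb, 0.82 for Pgap1, 0.68 for Zfp335 and 0.57 for Cdx1. Among genes that fell they were −0.79 for Zfp839, −0.85 for Cyp2u1, −1.33 for Fam214a, −1.38 for Zkscan7, −1.4 for Parp11 and −2.14 for Ighv4-1. The comparison of 120 with 60 min held 0 calls when 120 min replicate 1 or replicate 3 was left out and when only those groups were fitted, 2 without 60 min replicate 2 or replicate 3, 298 without 120 min replicate 2 and 1151 without 60 min replicate 1.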

How the results depend on the processing

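No paired analysis was possible because the replicate numbers were given in accession order and the labels tie no animals together across groups. The 188 genes that differed from the sensitized controls were 846 with DESeq2, 327 at 5 CPM or more in 3 libraries, 34 with transcript length offsets and 15 with the marker covariate. Leaving out 1 library gave 7 to 240. The 109 rises were 463 with DESeq2, 169 at 5 CPM, 21 with length offsets, 9 with the covariate and 5 to 127 with 1 library left out. The 79 falls were 383 with DESeq2, 121 without a filter, 158 at 5 CPM, 50 with only the groups compared, 13 with length offsets, 6 with the covariate and 2 to 113 with 1 library left out. DESeq2 called 186 of the 188 and left 2335 genes without an adjusted p. None of the 188 changed sign in any fit, and 61 passed in none of the fits without 1 library.

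The 176 calls against the PBS mice were 966 with DESeq2, 319 without a filter, 44 with length offsets, 0 with the marker covariate, 95 with the mitochondrial covariate and 5 to 116 with 1 library left out. The 168 calls against 60 min were 951, 279 and 269 with DESeq2, no filter and 5 CPM, 0 with only the groups compared, 46 with length offsets, 99 and 4 with the marker and mitochondrial covariates, and 0 to 1151 with 1 library left out. The 151 calls against 30 min were 838 with DESeq2, 4 with only the groups compared, 32 with length offsets, 12 with the marker covariate and 4 to 67 with 1 library left out. The cause of these changes was not tested.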

Other observations

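Gene groups not described above gave few calls. Of 18 ion and fluid transport genes 16 were higher in value, the median being 0.23, and of 16 brush border enzymes 10 were positive with a median of 0.19, and edgeR called 0 in both, with 4 and 0 at an unadjusted p under 0.05. DESeq2 called 1 ion transport gene and 0 brush border enzymes. Dietary fat absorption genes had a median of 0.10 over 17 and fatty acid oxidation genes a median of −0.10 over 21. Of 80 cytosolic ribosomal protein genes 68 were positive with a median of 0.11 and 0 passed, 2 having an unadjusted p under 0.05.

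All 15 mitochondrially encoded genes tested were negative with a median of −0.52, with 0 past the threshold and 0 at an unadjusted p under 0.05. The nuclear genes of oxidative phosphorylation had a median of 0.03 over 80. Among histone genes 44 of 52 were positive with a median of 0.38, and 1 rose, Hist1h1d, at 30.2, 28.5 and 27.9 CPM at 120 min and 5.54, 13.0 and 12.6 CPM in the sensitized controls. Over all genes tested 0.728% rose.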
